A study of Mus musculus with 38 samples.

Results

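FordPrefect and Tigger17d are families of ancient DNA transposons, and the 543 copies described here are every annotated mouse copy that carries either family name. FordPrefect has 270 copies and belongs to the hAT-Tip100 group, and Tigger17d has 273 copies and belongs to the TcMar-Tigger group. They were taken from 3793386 transposable element (TE) copies in 1225 families. The families were chosen by their LAP2B and LMNB1 family means and their IGG signal, so the concentration of signal and the ratio to IGG are given as descriptions with no test. The comparisons of mutants with WT and of the stages come from fits over all families or all copies, and since results of these libraries were known when the families were chosen, their p-values are not independent support. None of the 543 copies was at 0 in all 36 libraries, and no copy was filtered out.

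The study used CUT&RUN, in which an antibody brings a nuclease to its target on chromatin and the DNA fragments cut free are sequenced. LAP2B, which is anchored in the inner membrane of the nucleus, was profiled in 24 libraries, which hold 4 genotypes in mouse embryonic stem cells of the naive state and in epiblast-like cells (EpiLCs) with 3 libraries in each of the 8 groups. The genotypes were wild type (WT), LBR knockout (LBRKO), lamin triple knockout (TKO) and lamin plus LBR quadruple knockout (QKO). LMNB1 (lamin B1) and the IGG control were each profiled in 6 libraries of WT cells only, 3 per stage. Naive cells were kept in 2i + LIF medium and EpiLCs were made with FGF and Activin A, both collected at 48 hours. LBRKO cells were derived from the WT cells, and the QKO line is 1 clone derived from the TKO cells. TKO cells come from another line than WT, and the study describes karyotype abnormalities in its lines, so genotype cannot be told apart from line. The antibody against LAP2B was raised against a stretch that LAP2α, a form not anchored in the membrane, shares in part, and the study describes the membrane form as the one it mainly detects. The IGG libraries were made with a secondary antibody in parallel with the LAP2B libraries, and no IGG library of a mutant was analysed here. The labels do not say whether the 3 libraries of a group came from separate cultures, so p-values measure the spread between these libraries. Each library held 37407387 to 131279154 reads summed over TE copies, in which reads at neighbouring copies can be counted more than once.

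DNA transposons move by excision and reinsertion of their DNA with the help of a transposase. The mouse copies of these old families are short remnants that no longer move. A family mean is often used to describe where a TE family lies relative to the nuclear lamina, and it gives equal weight to every copy. IGG measures the DNA that is released without an antibody against a chromatin protein.

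A single copy held most of the IGG signal of each family. FordPrefect_dup242 had a mean of 309.8 over the 6 IGG libraries, in units of spike-in scaled signal, and the next FordPrefect copy, FordPrefect_dup233, had 0.776. Tigger17d_dup9 had a mean of 2033 and the next Tigger17d copy, Tigger17d_dup130, had 0.512. FordPrefect_dup242 was at place 17 of all 3793386 TE copies by mean IGG, and Tigger17d_dup9 was tied at place 4. At the edge of the 10 copies with most IGG stood FordPrefect_dup46 at 0.381 inside and FordPrefect_dup202 at 0.376 outside, and Tigger17d_dup20 at 0.3657 inside and Tigger17d_dup127 at 0.3653 outside. The plot of copies ordered by IGG shows this gap between the first copy and the rest.

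**Figure D1:**
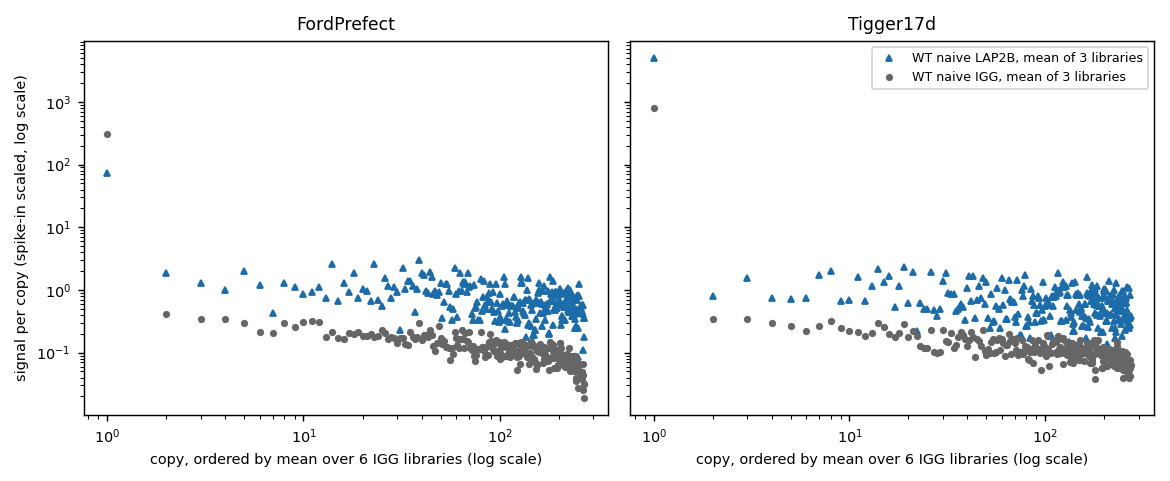
Signal of every FordPrefect copy (left) and Tigger17d copy (right) in naive WT cells, as the mean of 3 libraries of LAP2B (blue triangles) or IGG (grey circles), with copies ordered by their mean over the 6 IGG libraries. Both axes are on a log scale. The first copy lies far above the others in both assays, and its IGG point is above its LAP2B point for FordPrefect but below it for Tigger17d.

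The copy FordPrefect_dup242 lies in the table between entries that could be placed on chromosome 17. Copies and genes with equal reads in every library gave 8565 placed copies, and 6 of 8544 neighbouring pairs on 1 chromosome broke the order of the annotation. FordPrefect_dup242 fell between Gm49833 (chr17:40122677-40122913) and Gm49834 (chr17:40231407-40231625), GRCm39, an interval of 108493 bp. The only gene wholly inside it was Rn18s-rs5 (ENSMUSG00000119584), annotated as a ribosomal RNA (rRNA) gene on the plus strand at chr17:40157244-40159092. It was the only rRNA gene of at least 1500 bases among the 354 rRNA genes of the annotation. This gene had 0 reads in all 36 libraries in the gene tables, for which the authors left out blacklisted regions that they kept for TEs. The position of the copy within the interval is not known from the files, and whether it overlaps the gene was not tested. The first 300 of the 1849 bases of this gene are printed because it is the only annotated gene inside the interval, chr17:40157244-40157543 on the plus strand of GRCm39, with 56.3% G and C and 1 exact match in the genome.

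Rn18s-rs5: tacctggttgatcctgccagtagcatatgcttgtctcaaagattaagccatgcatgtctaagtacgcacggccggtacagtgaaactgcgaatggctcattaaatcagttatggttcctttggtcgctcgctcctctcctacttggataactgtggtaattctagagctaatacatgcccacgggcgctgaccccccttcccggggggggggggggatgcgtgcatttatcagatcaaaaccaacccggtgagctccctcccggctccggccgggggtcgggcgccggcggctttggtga

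Of the 36 windows of 50 bases that tile the gene, 11 had another exact match elsewhere in the assembly. The neighbours of FordPrefect_dup242 shared its signal, and the plot of neighbours shows where it ends. L1MdF_IV_dup18779 and MTC-int_dup1387 held 21.8% and 21.7% as many IGG reads as FordPrefect_dup242, and B2_Mm1a_dup16895 and MTC-int_dup1388 held 65.3% each. The copies beyond these held at most 0.194% within 10 copies on either side.

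Tigger17d_dup9 could be placed only between Gm28385 (chr1:77547309-77547600) and Gm24160 (chr1:79491456-79491581), an interval of 1.94 Mb that holds 41 genes, 10 of them protein coding. Its reads were equal in all 36 libraries to those of the SINE copy B1_Mus1_dup2252, just before it in the table. That copy held 10.7% of the IGG sum of the B1_Mus1 family, which has 96303 copies, while Tigger17d_dup9 held 97.7% of the IGG sum of Tigger17d. The next 4 copies held 0.394% as many IGG reads. Tigger17d_dup10, 5 copies further on, had a mean IGG of 0.237, near the rest of its family.

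**Figure D2:**
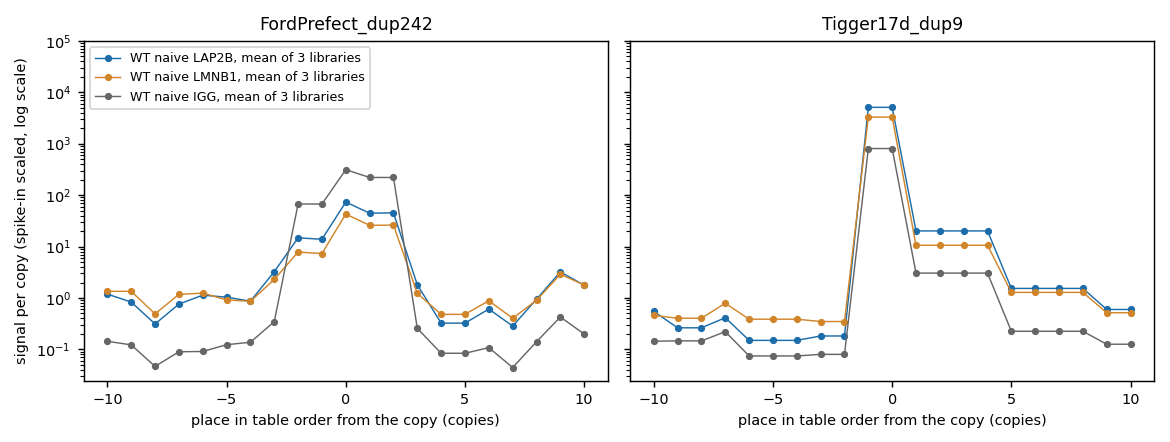
Signal of the 10 TE copies on either side of FordPrefect_dup242 (left) and Tigger17d_dup9 (right), in table order, as the mean of 3 naive WT libraries of LAP2B (blue), LMNB1 (orange) and IGG (grey) on a log scale. The raised signal covers 5 neighbouring copies for FordPrefect_dup242 and 2 for Tigger17d_dup9, with a lower shoulder of 4 copies after the latter.

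The first copy decided the family mean to a different degree in the 2 families. Tigger17d_dup9 held 95.1 to 98.5% of the Tigger17d sum in the 24 LAP2B libraries, 94.8 to 97.9% in the 6 LMNB1 libraries and 95.6 to 98.3% in the 6 IGG libraries. FordPrefect_dup242 held 19.8 to 92.0% in LAP2B, 17.7 to 40.5% in LMNB1 and 74.4 to 93.8% in IGG. It was the highest FordPrefect copy in every library. In naive WT LAP2B it took 34 to 44 FordPrefect copies to hold 50% of the sum, and 1 copy in each IGG library. Among the 937 families of at least 100 copies, Tigger17d ranked 1st for the share of its highest copy in every group and FordPrefect ranked 2nd or 3rd. The highest copy of the median family held 1.02% in naive WT LAP2B and 0.930% in naive WT IGG.

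**Figure D3:**
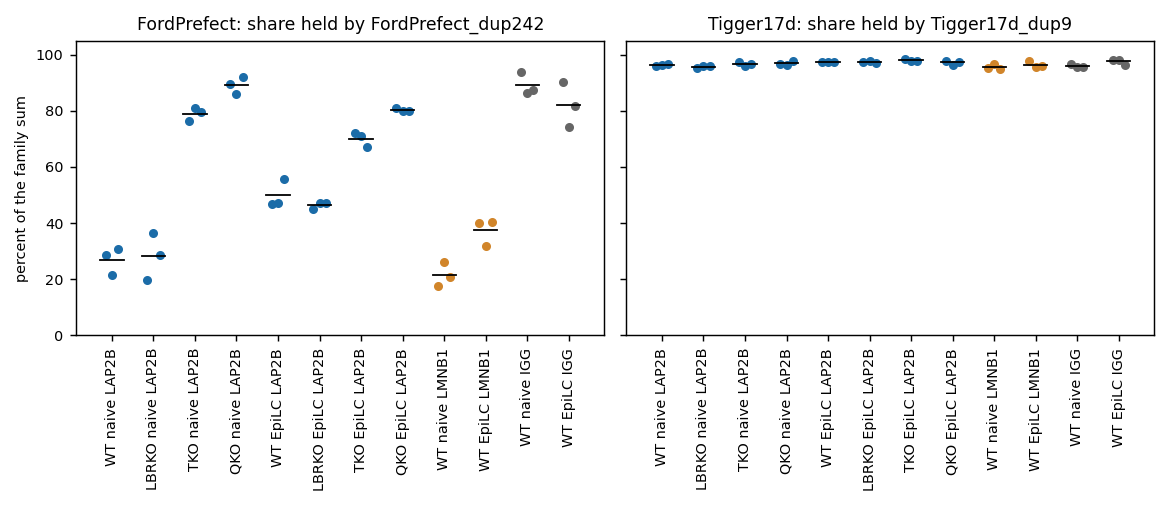
Percent of the family sum held by FordPrefect_dup242 (left) and Tigger17d_dup9 (right) in each of the 36 libraries, with 3 points per group and a black line at the group mean. The FordPrefect share lies between 17.7 and 93.8% and is lowest in naive WT and LBRKO LAP2B and in naive LMNB1, whereas every Tigger17d share is at least 94.8%.

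Related families did not have such a copy. In naive WT IGG the highest copy held 0.409 to 1.90% of the sum in Tigger17, Tigger17a, Tigger17b and Tigger17c, and 6.50% in FordPrefect_a, which has 49 copies. Their means were 0.108 to 0.126, against 1.27 ± 0.72 (SD, n = 3) for FordPrefect and 3.06 ± 1.08 for Tigger17d. The medians over copies were 0.105 in both families.

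The family means of the 2 families stood in different places against IGG. The spike-in factor rests on a constant set per antibody, and the study names none for IGG or LMNB1. The sign of a ratio to IGG on that scale can therefore depend on the constant. In naive WT cells the FordPrefect mean was 1.03 ± 0.24 (SD, n = 3) in LAP2B, 0.740 in LMNB1 and 1.27 in IGG. Its log2 ratio to IGG was -0.31 for LAP2B and -0.78 for LMNB1, and in EpiLCs it was -0.006 and -0.47. The sign for LAP2B rested on single libraries: it was 0.22 without IGG library 1 in naive cells, and 0.26, 0.046 and 0.18 without IGG library 1, IGG library 2 and LAP2B library 2 in EpiLCs. On the relative scale, where each library was divided by its median family, the FordPrefect ratios were -2.88 for LAP2B and -2.996 for LMNB1 in naive cells and -1.67 and -2.004 in EpiLCs, with the libraries of either antibody below every IGG library. On the spike-in scale with all libraries the ratios were the lowest of all 1225 families in each of the 4 comparisons, while the median family was at 2.62 for naive LAP2B, and the LAP2B and IGG libraries overlapped. Tigger17d had log2 ratios of 2.66 for naive LAP2B, at place 724 from the lowest, and 1.12 for EpiLC LAP2B, at place 19. Its LMNB1 ratios were 2.04 and 0.58, at places 169 and 10. The Tigger17d mean was 9.98, 22.4 and 4.23 in the 3 EpiLC IGG libraries. Leaving out 1 library at a time, its EpiLC ratios ranged from 0.71 to 1.90 for LAP2B and from 0.12 to 1.36 for LMNB1.

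Without its highest copy FordPrefect lay near the median family against IGG. The log2 ratio of the mean over the other 269 copies was 2.68 in naive LAP2B, at place 758 of the 1223 families with more than 1 copy. The ratio of the median over copies was 2.60. Copy by copy, FordPrefect_dup242 was the only FordPrefect copy below IGG in naive LAP2B, at -2.09 where the median FordPrefect copy was at 2.66, and it was the lowest of its 270 copies in both stages and for both antibodies. Tigger17d_dup9 had a log2 ratio of 2.66 in naive LAP2B, at place 158 of 273, where the median Tigger17d copy was at 2.50. In naive WT cells, 0.353% of all TE copies were below IGG for LAP2B. On the spike-in scale LAP2B was thus below IGG at FordPrefect_dup242 and above it at Tigger17d_dup9. Both signs can depend on the constant of the spike-in factor. Scaled to library size, Tigger17d_dup9 lay at 1661 to 1961 RPM in naive WT LAP2B, inside the 1368 to 2063 RPM of naive WT IGG. On the relative scale the Tigger17d family had log2 ratios to IGG of 0.047 for LAP2B and -0.19 for LMNB1 in naive cells, and of -0.23 and -0.63 in EpiLCs.

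Without the first copy, neither family mean was among the highest. The Tigger17d mean was the 3rd highest of 1225 in every group of libraries. The FordPrefect mean was the 4th highest in both IGG groups and the 121st in naive WT LAP2B. In LAP2B it was also the 4th highest in naive TKO, naive QKO and QKO EpiLCs, the 7th in TKO EpiLCs, the 19th in WT and LBRKO EpiLCs and the 121st in naive LBRKO, and in LMNB1 it was the 164th in naive cells and the 48th in EpiLCs. Without the first copy of each family, the 2 families stood between places 273 and 946 in the 12 groups.

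In naive cells the LAP2B family mean of FordPrefect was higher in TKO and QKO than in WT, while almost every other family fell. The FordPrefect mean was 0.814, 1.28 and 0.981 in the 3 naive WT libraries, 1.08, 2.26 and 1.43 in TKO, and 1.57, 1.09 and 2.02 in QKO. The WT values overlapped those of both mutants. On the log2 scale, after adding 0.0484, the difference from WT was 0.57 ± 0.23 (SE) in TKO and 0.56 ± 0.23 in QKO, with adjusted p of 0.0142 and 0.0146 in limma over all families. LAP2B family means took part in the choice of the families, so these p-values are not independent support. Of all families, 0.0816% were called higher in each comparison, and this 1 family was FordPrefect, whereas 99.4% and 99.7% were called lower (99.5% and 99.8% in either direction), with a median log2 difference of -1.02 and -1.76. The TKO call was lost without naive WT library 1 (adjusted p = 0.103) or TKO library 2 (0.259), and the QKO call without WT library 1 (0.105) or QKO library 3 (0.173), all in limma. The relative scale gave differences of 1.67 in TKO and 2.49 in QKO (adjusted p = 1.88e-07 and 3.55e-12, limma). The share of all families called on that scale is not given.

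The mean over the other FordPrefect copies fell. Without FordPrefect_dup242 the mean over copies was 0.758 ± 0.223 (SD, n = 3) in naive WT, 0.326 ± 0.093 in TKO and 0.160 ± 0.006 in QKO. The limma log2 difference was then -1.10 in TKO (adjusted p = 5.08e-07) and -1.92 in QKO (adjusted p = 1.85e-19), the opposite sign to that of the mean over all copies. On the relative scale it was -0.061 in TKO, which was not called, and -0.196 in QKO (adjusted p = 0.0671 and 2.36e-06, limma). FordPrefect_dup242 itself was 62.7, 75.0 and 81.7 in WT, 222.2, 494.4 and 306.9 in TKO, and 380.2, 252.9 and 502.0 in QKO. All mutant values were above all WT values. The log2 difference was 2.15 ± 0.51 (SE) in TKO and 2.32 ± 0.51 in QKO, with adjusted p of 0.00159 and 0.000103 in limma over all copies. The relative scale gave 3.2995 and 4.31 (adjusted p = 2.87e-12 and 1.48e-16, limma). The 4 neighbouring copies that shared its signal also rose, by 1.91 to 2.16 in TKO and 2.10 to 2.45 in QKO, on the log2 scale. FordPrefect_dup242 was singled out by LAP2B and IGG values of these libraries, and the fit without it was chosen after seeing the data. The p-values for this copy and for the mean without it are therefore not independent support.

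**Figure D4:**
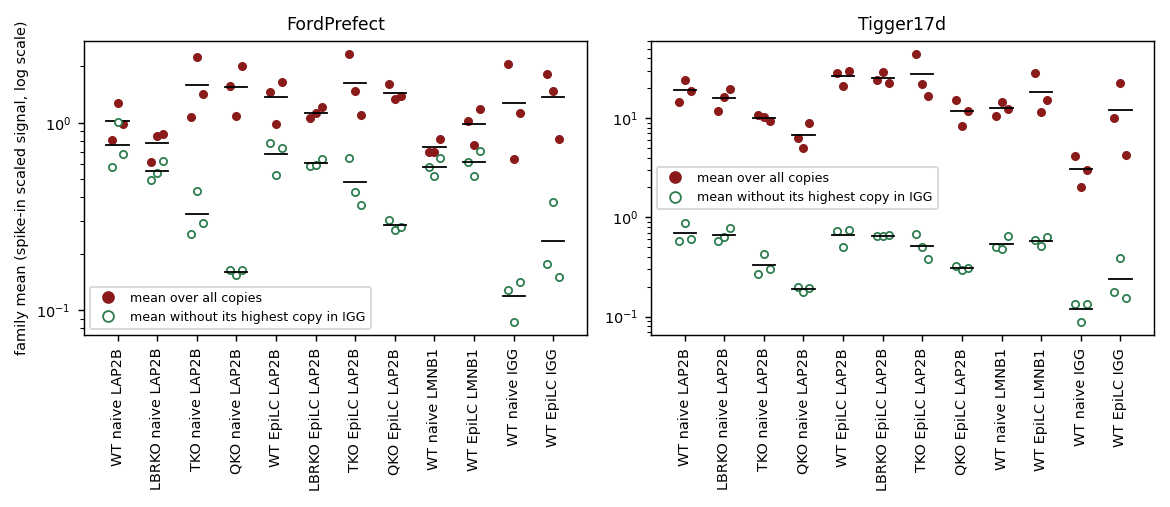
Family mean of FordPrefect (left) and Tigger17d (right) in each of the 36 libraries, over all copies (filled red) and without the copy with most IGG (open green), with 3 libraries per group, a black line at each group mean and a log axis of spike-in scaled signal. In naive cells the FordPrefect mean over all copies is higher in TKO and QKO than in WT, and the mean without FordPrefect_dup242 is lower.

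On the spike-in scale, the level of FordPrefect_dup242 in the naive lamin mutants lay within the range of IGG in WT. Scaled to library size, it lay below that of IGG in TKO. The study names no spike-in constant for IGG, so the placing on the spike-in scale can depend on that constant. On the spike-in scale FordPrefect_dup242 was 521.3, 148.8 and 265.9 in the 3 naive WT IGG libraries, and all TKO and QKO values of LAP2B fell inside that range. Without IGG library 1, it was above that range in TKO libraries 2 and 3 and in QKO libraries 1 and 3. In LMNB1 it was 33.6, 49.1 and 45.7 in naive WT cells and 110.0, 65.8 and 129.2 in WT EpiLCs, below every IGG library. Scaled to a common library size, it held 21.1 to 32.0 RPM in naive WT LAP2B, 202.1 to 279.4 in TKO, 336.9 to 578.3 in QKO and 410.5 to 972.5 in naive WT IGG. By RPM, all TKO libraries and QKO library 2 thus lay below every naive WT IGG library. QKO libraries 1 and 3 lay inside the IGG range. IGG was measured only in WT cells, so whether the IGG signal differs between genotypes was not tested.

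In EpiLCs the FordPrefect family mean was not called in any mutant. The log2 difference was 0.21 ± 0.23 (SE) in TKO and 0.10 ± 0.23 in QKO, with adjusted p of 0.366 and 0.661 in limma, where 15.7% and 99.9% of families were called lower (15.8% and 99.9% in either direction). Scaling each library to its median family gave 0.67 and 1.23 for TKO and QKO EpiLCs (adjusted p = 0.000819 and 2.04e-06, limma). Without FordPrefect_dup242 the direction turned, to -0.48 and -1.12 on the spike-in scale (adjusted p = 0.0606 and 2.77e-07, limma) and to -0.045 and -0.071 on the relative scale (adjusted p = 0.222 and 0.0387). FordPrefect_dup242 was 185.6, 126.3 and 247.5 in WT EpiLCs, 454.5, 282.7 and 198.2 in TKO, and 351.6, 288.3 and 300.9 in QKO. The QKO values were above all WT values and the TKO values overlapped them, and neither difference was called (log2 0.71 and 0.80, adjusted p = 0.490 and 0.2002, limma). Both were called with a pseudocount of 1 times the median copy (adjusted p = 0.0411 and 0.00304, limma), and also on the relative scale, at 1.19 and 1.96 (adjusted p = 0.0146 and 2.04e-06). With the lowest 10% of copies left out, the QKO difference was called and the TKO difference was not (adjusted p = 0.00246 and 0.0581, limma). LBR loss alone gave log2 differences of -0.37 in naive cells and -0.23 in EpiLCs (adjusted p = 0.341 and 0.999, limma). Without FordPrefect_dup242 these were -0.39 and -0.13 on the spike-in scale (adjusted p = 0.222 and 0.999), and -0.22 and -0.11 on the relative scale, where both were called (adjusted p = 8.00e-07 and 0.00264, limma). The median over copies gave -0.55 in naive cells, which was called (adjusted p = 0.0450, limma), and -0.22 in EpiLCs, which was not. On the spike-in scale over all copies, 0.327% of all families were called higher and 9.71% lower in LBRKO naive cells. In LBRKO EpiLCs, 0.0816% were called higher and none lower, and 23 families had an unadjusted p under 0.05. The shares of families called on the relative scale or with the median over copies are not given. Whether those calls are particular to FordPrefect was therefore not tested. FordPrefect_dup242 was picked by values of these libraries, so its p-values are not independent support.

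Tigger17d fell with the other families in naive TKO and QKO. Its LAP2B mean was 14.6, 24.3 and 18.9 in naive WT libraries, 10.6, 10.3 and 9.45 in TKO, and 6.35, 5.00 and 8.97 in QKO, so both mutants lay below WT in every library. The log2 difference was -0.90 ± 0.29 (SE) in TKO and -1.51 ± 0.29 in QKO (adjusted p = 0.00175 and 1.27e-07, limma), and -1.19 ± 0.29 in QKO EpiLCs (adjusted p = 3.57e-05). In TKO EpiLCs it was -0.04 ± 0.29 (adjusted p = 0.890). Relative to the median family, the naive differences were 0.25 in TKO and 0.47 in QKO (adjusted p = 0.335 and 0.0494, limma). On that scale QKO EpiLCs showed almost no fall, and the difference of Tigger17d_dup9 there was -0.028 (adjusted p = 0.969, limma). Tigger17d_dup9 was 3821, 6394 and 5007 in naive WT, 2829, 2690 and 2498 in TKO, and 1679, 1317 and 2397 in QKO, with no overlap between WT and either mutant. Its log2 differences were those of the family, -0.90 and -1.51 in naive cells, with an SE of 1.38 from the trend of the spread with the level, and neither was called. That outcome depended on the setting: with a pseudocount of 1 times the median copy both were called (adjusted p = 6.29e-05 and 3.04e-10, limma), as they were with the lowest 10% of copies left out (adjusted p = 6.93e-05 and 2.53e-11). With no trend the SE was 0.41, and the QKO difference was called and the TKO difference was not (adjusted p = 0.00168 and 0.0791, limma). On the relative scale the differences were 0.25 and 0.48 and were not called (adjusted p = 0.588 and 0.128, limma). Tigger17d_dup9 was picked by values of these libraries, so its p-values are not independent support.

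Counted copy by copy, most copies of both families were called lower in naive QKO, where 70.6% of all TE copies were called in either direction, against 39.3% in naive TKO. In QKO, 221 of 270 FordPrefect copies (81.9%) and 190 of 273 Tigger17d copies (69.6%) were lower, against 68% of all TE copies, and 2 and 7 were higher, against 2.55%. In TKO, 133 and 110 copies (49.3% and 40.3%) were lower against 38.7% of all copies, and 2 and 1 were higher against 0.674%. On the relative scale the split in naive TKO was 8 FordPrefect copies lower and 6 higher, and 5 and 13 Tigger17d copies, against 1.58% of all copies lower and 6.55% higher. On that scale 56 FordPrefect copies were lower and 35 higher in naive QKO, and 42 and 60 Tigger17d copies were, against 16.7% of all copies lower and 22.6% higher. In QKO EpiLCs, 129 and 100 copies were lower against 37.5% of all copies and none was higher, with 0.0831% of all copies higher. After the relative scaling no FordPrefect copy was lower and 2 were higher in QKO EpiLCs, and 1 Tigger17d copy was lower and none higher, against 0.442% of all copies lower and 1.26% higher. In LBRKO naive cells, 41 FordPrefect and 26 Tigger17d copies were lower against 10.5%, and 8 and 26 were higher against 8.22%. After the relative scaling 29 FordPrefect and 19 Tigger17d copies were lower there, against 7.41%, and 13 and 36 were higher, against 12.3%. In LBRKO EpiLCs, 1 and 2 copies were lower against 0.325% of all copies and none was higher against 0.688% (1.01% in either direction). In TKO EpiLCs, 4 FordPrefect copies and no Tigger17d copy were lower against 0.924% and none was higher against 0.0318% (0.956% in either direction). Leaving out WT library 2, TKO library 1 or TKO library 3 lowered the naive TKO count of FordPrefect copies called in either direction from 135 to 56, 77 and 86, and leaving out WT library 2 or TKO library 1 lowered that of Tigger17d from 111 to 62 and 70. In LBRKO naive cells, leaving out WT library 2 lowered the counts in either direction from 49 to 18 for FordPrefect and from 52 to 27 for Tigger17d. The FordPrefect count there was 25 without LBRKO library 3, and the Tigger17d count was 28 to 34 without WT library 3 or any 1 LBRKO library. In QKO EpiLCs, the FordPrefect count of 129 became 64, 81 and 81 without WT library 1, WT library 3 and QKO library 2. The Tigger17d count of 100 became 56 and 63 without WT library 1 and WT library 3. The share of all TE copies called is not given for these fits. Whether the falls are particular to the 2 families was therefore not tested. Chosen after its values were seen, FordPrefect_dup182 was the other FordPrefect copy higher in naive TKO and QKO. Its means were 0.231 in WT, 0.498 in TKO (adjusted p = 0.0351, limma) and 0.635 in QKO (adjusted p = 0.00266). It was also higher in LBRKO, at 1.22 (adjusted p = 0.000676). Its TKO call was lost with a pseudocount of 1 times the median copy and with no trend of the spread. There FordPrefect_dup242 was the only FordPrefect copy called higher in naive TKO. Tigger17d_dup92, also chosen after its values were seen, was the only Tigger17d copy higher in naive TKO. It was at 0.136 in WT and 0.274 in TKO (adjusted p = 0.0373, limma). Tigger17d_dup92 was also higher in naive LBRKO, at 0.596 (adjusted p = 0.00274, limma), and in naive QKO, at 0.403 (adjusted p = 0.00227). With a pseudocount of 1 times the median copy, no Tigger17d copy was called higher in naive TKO. FordPrefect_dup53, FordPrefect_dup54 and FordPrefect_dup109, the highest copies after FordPrefect_dup242 in naive WT LAP2B, had log2 differences of -3.81, -3.31 and -3.69 in naive QKO, given as a description with no test because those WT libraries chose them. FordPrefect_dup46 and FordPrefect_dup202, at the edge of the 10 copies with most IGG, were not called in naive QKO, with log2 differences of 0.13 and -0.80 (adjusted p = 0.776 and 0.0851, limma).

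The share of LAP2B held by the 10 copies with most IGG was higher in TKO and QKO than in WT for FordPrefect. These values are a description with no test, since the same LAP2B and IGG values chose the families. In naive cells it was 31.0% ± 5.2 (SD, n = 3) for WT, 34.5% ± 7.1 for LBRKO, 80.5% ± 2.3 for TKO and 90.04% ± 2.8 for QKO. In EpiLCs the genotypes stood, listed alike, at 53.7% ± 4.5, 51.0% ± 0.9, 72.8% ± 2.2 and 82.2% ± 0.5. TKO and QKO did not overlap WT in either stage. For Tigger17d the share was 96.0 to 97.2% in the naive genotypes and 97.5 to 98.1% in EpiLCs.

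Between the stages of WT, no family mean of either family was called. FordPrefect had log2 differences of EpiLC minus naive of 0.39 in LAP2B, 0.37 in LMNB1 and 0.19 in IGG, and Tigger17d had 0.47, 0.45 and 1.74 (limma, adjusted p at least 0.173). With the replicate number as a block, the LMNB1 differences were called (adjusted p = 4.57e-06 and 0.02998, limma), where the deviations of same-numbered LMNB1 libraries from their group means had correlations of -0.214, -0.401 and -0.393 over families. The share of all families called with the block is not given, so whether those calls are particular to these families was not tested. In the fits without a block, 0.163% of all families were called in LAP2B. None were called in LMNB1 or IGG by limma without a block, where 13 and 14 families had an unadjusted p under 0.05. Relative to the median family, a scale for which the share of families called is not given, LAP2B rose in both families. The rise was 0.52 in FordPrefect (adjusted p = 0.00929) and 0.61 in Tigger17d (adjusted p = 0.0382, limma). Without the first copy these differences were 0.0039 and 0.071 on the relative scale, neither of them called (adjusted p = 0.926 and 0.0964, limma), and -0.13 and -0.060 on the spike-in scale. Tigger17d_dup9 was 1106, 527.1 and 776.0 in naive IGG and 2676, 6000 and 1113 in EpiLC IGG, with all EpiLC values above the naive ones.

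Over the other copies, IGG and LAP2B levels were related in rank. The Spearman correlation across the 269 FordPrefect copies was 0.49 in naive WT and 0.61 in naive QKO, and across the 272 Tigger17d copies it was 0.36 and 0.49, as a description, since copies in 1 bin share reads, copies differ in the length they cover and all libraries share base composition.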

How the data were processed

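CUT&RUN reads were aligned by the authors with Bowtie2 2.3.5.1 to mm39 (GRCm39) and processed with SAMtools 1.10 and deepTools. The deposited values are a signal per TE copy: coverage normalised to depth and length and multiplied by a yeast spike-in factor. The methods name wider bins for TEs, but the values read as sums over bins of 1 kb, so copies in 1 bin share reads. Whole reads were recovered for at least 99.9997% of values (within 0.05 of a step).

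Family means were compared with limma 3.58.1 (R 4.3.3) on log2(value + 0.1 of the median), in 1 model of the 24 LAP2B libraries or 1 per antibody for the stages, and copies over all 3793386 copies with a pseudocount of 0.0425, with Benjamini-Hochberg adjustment and a threshold of 0.05. edgeR 4.0.16 and DESeq2 1.42.0 size factors served as alternatives. Shares of all families called are given for the main fits and the interactions only. Shares held by the copies with most IGG are given with no test, because those values chose the families. Scripts were tested on simulated data. GENCODE M39 gave gene positions. No filter on low values was used.

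Named copies were the 5 with most IGG, naive WT LAP2B or naive WT LMNB1 signal in each family, those at the edge of the 10 with most IGG, and copies sharing their reads. The members and lists were chosen with earlier results of these data known. 3 columns of per-sample values and 2 samples of another mark were not used here. Depth was 37407387 to 131279154 reads summed over copies per library.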

Additional observations from a re-analysis of the deposited data

Results flagged for a closer look

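The effect of the lamin mutations on the FordPrefect mean differed between the stages when each library was divided by its median family. The difference of the log2 effect, EpiLC minus naive, was -1.001 for TKO (adjusted p = 0.00171, limma) and -1.26 for QKO (adjusted p = 2.26e-05, limma). Both come from a test of the interaction itself. Of 1225 families on this scale, 25 were called higher and 198 lower for TKO, and 300 higher and 358 lower for QKO. A call for QKO was thus common. On the spike-in scale the FordPrefect differences were -0.35 (adjusted p = 0.291) and -0.46 (adjusted p = 0.169), and were not called. On the spike-in scale 0.245% and 60% of families were called, all of them higher. Without FordPrefect_dup242 and on the relative scale the FordPrefect differences were 0.02 (adjusted p = 0.829) and 0.13 (adjusted p = 0.0107).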

How the results depend on the processing

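Leaving out the copies with most IGG turned the FordPrefect differences of TKO and QKO from WT, and those of LBRKO stayed negative. Without 1 copy, without 10 copies and with the median over copies, the log2 differences were -1.10, -1.12 and -1.07 in naive TKO, -1.92, -1.95 and -2.003 in naive QKO, -0.48, -0.50 and -0.55 in TKO EpiLCs and -1.12, -1.14 and -1.17 in QKO EpiLCs. In LBRKO naive cells the median gave -0.55 (called). Without 1 copy and on the relative scale, FordPrefect gave -0.22 and -0.11 for LBRKO in naive cells and EpiLCs (both called), -0.061 and -0.045 for TKO and -0.196 and -0.071 for QKO (both called), and Tigger17d gave 0.14 and 0.028, 0.087 and 0.11, and 0.15 and 0.087. Whether these Tigger17d values were called, and the shares of all families called in that fit, are not given. The Tigger17d difference in LBRKO EpiLCs was 0.0066 without 10 copies and 0.0092 without 1.

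Dividing by the median family or by the mean over all copies made FordPrefect called in EpiLCs, at 0.67 and 0.62 for TKO and 1.23 and 1.17 for QKO. edgeR on recovered reads gave 0.70 with TMM and 0.70 with DESeq2 size factors for TKO, and 1.28 and 1.28 for QKO. For Tigger17d these 4 settings gave 0.25, 0.13, 0.26 and 0.27 in naive TKO, 0.47, 0.20, 0.48 and 0.51 in naive QKO, 0.43, 0.39, 0.46 and 0.46 in TKO EpiLCs, and -0.023, -0.089, 0.017 and 0.014 in QKO EpiLCs. With the spike-in scale, edgeR gave 0.065 for Tigger17d in TKO EpiLCs.

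Between stages, both relative scales made LAP2B called, at 0.52 and 0.48 for FordPrefect and 0.61 and 0.57 for Tigger17d, and gave -0.71 and -0.71 for FordPrefect IGG. The LAP2B difference was -0.085 with the median, -0.16 without 10 copies and -0.13 without 1 for FordPrefect, and -0.077 and -0.060 without 10 and 1 for Tigger17d. Without 1 copy on the relative scale FordPrefect had -0.0038 in LMNB1 and -0.014 in IGG.

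Against IGG, FordPrefect had log2 ratios of -2.88 and -2.996 for naive LAP2B and LMNB1 and -1.67 and -2.004 for EpiLCs on the relative scale. With the median, without 10 copies and without 1 copy they were 2.60, 2.72 and 2.68 for naive LAP2B, 2.18, 2.36 and 2.2998 for naive LMNB1, 1.59, 1.58 and 1.53 for EpiLC LAP2B, and 1.42, 1.45 and 1.39 for EpiLC LMNB1. Tigger17d had 0.047, -0.19, -0.23 and -0.63 on the relative scale. The highest 20 FordPrefect copies held 43.1% of LMNB1. Copies ranked in 1 IGG library held 74.4 to 93.8% of FordPrefect and 95.6 to 98.3% of Tigger17d in the others.

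Counts of called copies on the relative scale were 14 and 18 for FordPrefect (of 270) and Tigger17d (of 273) in naive TKO, against 8.14% of all copies, 91 and 102 in naive QKO (39.3%), 5 and 7 in LBRKO EpiLCs (1.81%), and 2 and 1 in QKO EpiLCs (1.71%), with 1 FordPrefect copy in TKO EpiLCs (0.106%). The larger pseudocount gave 78 FordPrefect copies in LBRKO naive cells (28.8% of all copies), 12 and 15 in LBRKO EpiLCs (3.78%), and 17 and 8 in TKO EpiLCs (3.88%). Leaving out the lowest copies gave 3 FordPrefect copies in LBRKO EpiLCs (1.31%).

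All 3 correlations of same-numbered deviations passed 0.1 only for naive QKO against WT (0.126, 0.206 and 0.130). For the LMNB1 stages they were -0.214, -0.401 and -0.393. No main fit took the replicate numbers to pair the samples, naive QKO included, and the replicate block served as an alternative. With the replicate block, the LMNB1 stage differences of 0.37 for FordPrefect and 0.45 for Tigger17d were called (adjusted p = 4.57e-06 and 0.02998, limma), 2 FordPrefect copies were called in TKO EpiLCs, against 0.753% of all copies, and the naive FordPrefect calls had adjusted p of 0.0223 and 0.0228. The share of all families called with the block is not given.

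Leaving out 1 library at a time, FordPrefect ranged from -0.51 to -0.20 for LBRKO, 0.28 to 0.80 for TKO and 0.36 to 0.79 for QKO in naive cells, and from -0.44 to -0.09, -0.071 to 0.46 and -0.11 to 0.25 in EpiLCs. Tigger17d ranged from -0.46 to -0.09, -1.08 to -0.71 and -1.73 to -1.32 in naive cells, and from -0.22 to 0.045, -0.44 to 0.26 and -1.38 to -0.96 in EpiLCs. The stage differences of FordPrefect ranged from 0.24 to 0.60 in LAP2B, 0.24 to 0.54 in LMNB1 and -0.22 to 0.61 in IGG, and those of Tigger17d from 0.29 to 0.65, 0.08 to 0.73 and 1.15 to 2.34. The FordPrefect ratios to IGG reached -0.63 and 0.22 in naive LAP2B and -0.27 and 0.26 in EpiLC LAP2B. Copies called ranged, for FordPrefect and Tigger17d, from 18 to 45 and 27 to 43 in LBRKO naive cells, 56 to 144 and 62 to 120 in naive TKO, 198 to 223 and 182 to 192 in naive QKO, 0 to 2 and 1 to 5 in LBRKO EpiLCs, 0 to 10 and 0 to 7 in TKO EpiLCs, and 64 to 137 and 56 to 115 in QKO EpiLCs. The share of all TE copies called is not given for these fits, so whether the counts moved more than those of all copies was not tested. The Tigger17d share differed from WT by -0.019 to 0.69 percentage points in naive TKO, -0.28 to 0.013 in LBRKO EpiLCs and -0.52 to 0.14 in QKO EpiLCs. The fits without 1 copy, edgeR on the spike-in scale, the fit with no trend of the spread and the share of 1 copy were chosen after seeing the data. The causes of these changes were not tested.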
